A study of Mus musculus with 6 samples.

Results

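The genes described here build, acidify and fill the lysosome: the subunits and accessory proteins of the vacuolar proton pump (V-ATPase), the cathepsins, the glycosidase subunit Hexa, and the Lamp membrane glycoproteins. They were chosen by mouse symbol alone (names starting with Atp6v or Atp6ap, Cts followed by a single letter, Lamp1 to Lamp5, and Hexa), with pseudogenes left out and a mean normalized count of at least 10 over the 6 libraries. A normalized count is the read count divided by the size factor of its library. Of 31245 genes in the table, 44 carried such a name and 36 reached the minimum, 20 of the pump, 13 hydrolases (12 cathepsins and Hexa) and 3 Lamp genes. The 8 below it were Atp6v0a4, Atp6v0d2, Atp6v1b1, Atp6v1e2, Atp6v1fnb, Ctse, Ctsg and Ctsq. Just inside the minimum lay Ctsw and Ctsk, with means of 11.5 and 12.9, and just outside it Atp6v0a4 and Atp6v0d2, with means of 8.82 and 6.08.

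The RNA came from 6 primary cultures of mouse cortex, prepared from pups of postnatal day 1 and treated after 12 to 13 days in vitro. In 3 cultures the medium received NGPF2 at 1.5 ng/ml for 2 h, and 3 cultures received vehicle (PBS). The labels do not say what NGPF2 is, and give no strain, genotype or sex. The series describes 3 vehicle and NGPF2 pairs from 3 independent experiments, and a pair here is the NGPF2 and the vehicle library of the same replicate number. Each comparison asks how these transcripts differed after 2 h of NGPF2.

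The libraries fall into a pair and a foursome. By their names, the 4 libraries with replicate numbers 2 and 3 have a common stem, and those numbered 1 do not. The total count was between 17478070 and 45193691 per library. All 11 neuron markers were detected in every library, so the cultures held the labelled cell type, and they also held glia. Summed astrocyte markers (12 genes) reached 18620 and 15374 in NGPF2 2 and 3, against 67786 and 61044 in vehicle 2 and 3, with 28856 in NGPF2 1 and 25081 in vehicle 1. The 12 microglia markers summed to 52.6 and 104 in NGPF2 2 and 3, against 576 and 491 in vehicle 2 and 3, with 1841 in NGPF2 1 and 1825 in vehicle 1, and Tmem119, Aif1 and Fcrls stood at 0 in both NGPF2 2 and NGPF2 3. Neuron markers summed to 389640 and 371296 in NGPF2 2 and 3, against 295887 and 298490 in vehicle 2 and 3, with 256230 in NGPF2 1 and 262389 in vehicle 1. Of the genes kept, 11 of 11 astrocyte and 7 of 10 microglia markers fell and 6 of 11 neuron markers rose in replicates 2 and 3 (limma, adjusted p under 0.05), where 11.3% of all genes kept fell and 9.77% rose. Markers of oligodendrocyte precursors fell in 3 of 5 cases, of fibroblasts and mural cells in 3 of 8, of oligodendrocytes in 2 of 6 and of endothelial cells in 0 of 3. In bulk RNA, fewer cells of a type and less RNA per cell cannot be told apart, and the part of this difference in the results that follow was not tested.

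The V-ATPase is a rotary motor. Its cytosolic V1 sector (subunits A to H) splits ATP, and its membrane V0 sector (a, c, c'', d and e) carries protons into the lumen of lysosomes, endosomes and, in neurons, synaptic vesicles, where the gradient drives transmitter loading. The acid pH activates the cathepsins, proteases of the cysteine, aspartic and serine classes, and the glycosidases. Lamp1 and Lamp2 are the abundant glycoproteins of the lysosomal membrane, whereas Lamp5 is a relative found in neurons, where it marks a class of cortical interneurons. Several cathepsins, among them Ctss, Ctsc and Ctsz, are known in brain chiefly from microglia.

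Many lysosomal genes carry a short palindrome near the transcription start, the CLEAR element, bound by the transcription factor TFEB and its relatives. RefSeq promoter windows on GRCm38.p6, the mm10 assembly, of 250 bases before to 50 after a start, were found for 27 of the 36 genes. The core of the element, TCACGTGA, the same on both strands, occurred in 5 of the 27 genes (18.5%), and in 304 of 27025 genes overall (1.12%). None of the 27 held the longer form with G before and C after these letters, which 0.37% of all genes with a window hold. The shorter TCACGTG, searched on both strands and contained in the 8 letters, occurred in 7 of the 27 (25.9%) and in 4.29% of all genes. The windows below are shown because they hold these letters in genes of the pump, of the hydrolases and of the membrane, with the matched letters in capitals, 5′ to 3′ on the strand of the gene.
Atp6v1a (chr16:44139373-44139402, minus strand): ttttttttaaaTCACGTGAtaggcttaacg
Atp6v0d1 (chr8:105566050-105566079, minus strand): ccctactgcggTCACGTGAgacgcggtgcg
Atp6v0e (chr17:26676387-26676416, plus strand): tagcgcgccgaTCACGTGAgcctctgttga
Ctsd (chr7:142387908-142387937, minus strand): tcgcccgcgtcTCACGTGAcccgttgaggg
Ctsa (chr2:164833749-164833778, plus strand): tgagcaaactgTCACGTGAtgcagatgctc
Atp6v0b (chr4:117887348-117887377, minus strand): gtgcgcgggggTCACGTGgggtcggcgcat
Lamp1 (chr8:13159088-13159117, plus strand): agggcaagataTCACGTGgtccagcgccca
Counted from the start, the match begins at -132 in Atp6v1a, -99 in Ctsd and -4 in Atp6v0d1. Lamp1 holds 4 copies of the 7 letters within its window, and Atp6v0b and Ctsa hold more than 1 copy of theirs. A match of letters is no evidence that a factor was bound in these cultures. Genes with the 8 letters went different ways with NGPF2 in replicates 2 and 3, as described below: Atp6v0d1 rose, Atp6v0e fell, and Atp6v1a, Ctsd and Ctsa did not pass.

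Per kb of exon, and by the mean over the 6 libraries, 4 pump transcripts were the most abundant of these genes. The brain-enriched form of the small membrane subunit e, Atp6v0e2, stood at 7733, 9524 and 8809 normalized counts per kb with NGPF2, against 8053, 7724 and 7571 with vehicle. Next on this per-kb scale came Atp6v1b2, which encodes the B subunit of the catalytic ring, Atp6v0d1 and Atp6v0c, with ranges over the 6 libraries that overlap. Aspartic cathepsin Ctsd, at 4827 to 4891 per kb with NGPF2 and 5365 to 5835 with vehicle, was the most abundant hydrolase. It lay above Atp6v1b2 and Atp6v0c in vehicle 1, and above Atp6v0c in vehicle 2. At the other end, Ctsw, Ctsk, Ctsh and Atp6ap1l lay at or below 23.0 per kb in every library.

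**Figure D1:**
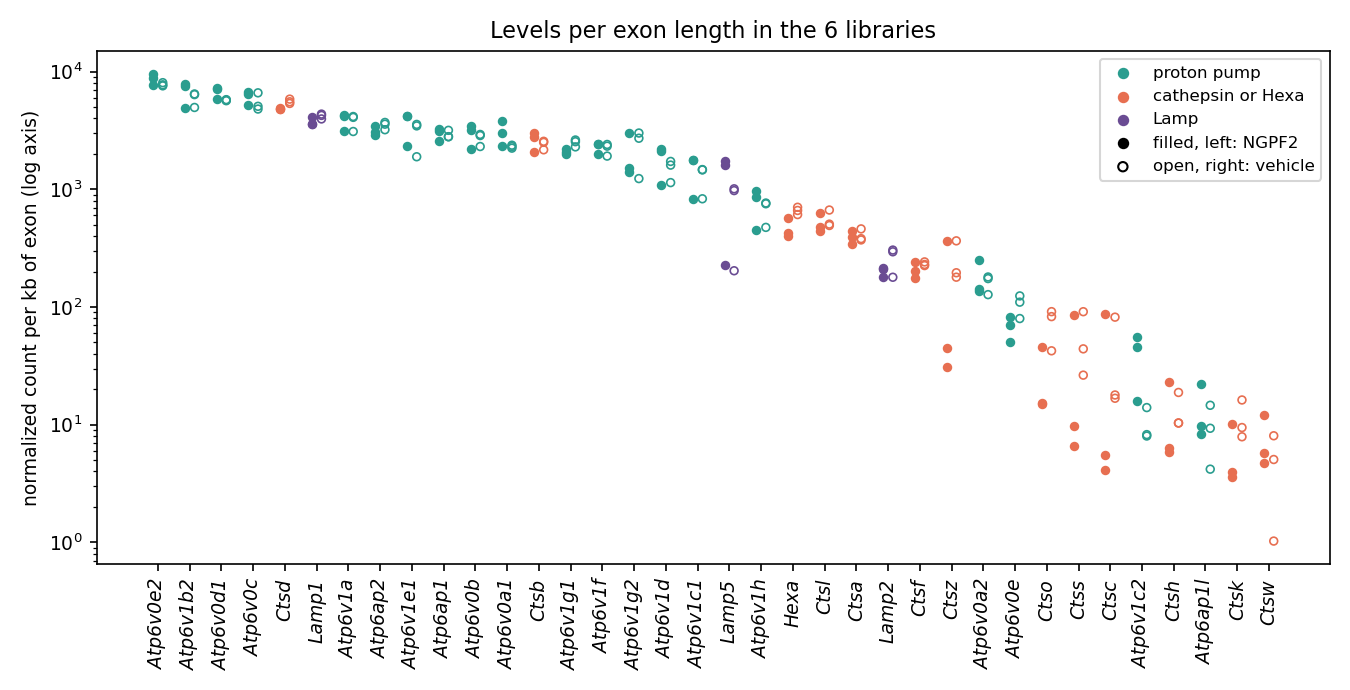
Normalized count per kb of exon (log axis) of the 36 genes, ordered by their mean, with NGPF2 libraries as filled points on the left and vehicle libraries as open points on the right. The 4 highest are pump genes, whereas cathepsins run from Ctsd, near the top, to Ctsw, the lowest.

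Of most paralogous subunits, 1 form made up nearly all of the level. Atp6v0e made up 1.05%, 0.728% and 0.573% of the per-kb level of the e subunit genes in NGPF2 1, 2 and 3, against 0.98%, 1.58% and 1.43% in vehicle 1, 2 and 3. Of subunit a, the neuronal form Atp6v0a1 outweighed Atp6v0a2, which held 3.61% to 7.75% of their sum with NGPF2 and 5.1% to 7.44% with vehicle. For subunit C, Atp6v1c2 held 1.89% to 3.02% with NGPF2 and 0.56% to 0.955% with vehicle, the rest being the ubiquitous Atp6v1c1. The G subunits were more even: Atp6v1g1 held 39.9%, 57.4% and 61.2% of their sum in NGPF2 1, 2 and 3, against 43.3%, 48.3% and 68% in vehicle 1, 2 and 3.

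Over the 3 pairs, none of the 36 genes passed. The smallest adjusted p among them was 0.379 (limma with the replicate number as a block), and 0.0% of all 16653 genes kept were called. At an unadjusted p under 0.05 there were 9 of the 36, where 13.0% of all genes kept lay below it. By voom, run on whole counts recovered from the table, 0 of the 36 passed, with 5 at an unadjusted p under 0.05, beside 1315 of all 16653. Without replicate 1, 12 of the 36 passed, as did 3275 of all 16653 genes kept. The comparison is therefore given pair by pair, and then within replicates 2 and 3, 2 libraries against 2.

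In pair 1 the median log2 difference (NGPF2 minus vehicle, of the normalized count plus 1) was 0.01 over the 20 pump genes, -0.05 over the 13 hydrolases and 0.01 over the 3 Lamp genes. In pairs 2 and 3 the pump median was 0.25 and 0.16, and that of the hydrolases -0.72 and -0.68. Medians over all genes kept were within 0.01 of 0 in each pair. With NGPF2, 11, 16 and 14 of the 20 pump genes were higher in pairs 1, 2 and 3, and 4, 3 and 1 of the 13 hydrolases. Of all 16653 genes kept, 8172, 8226 and 8290 were higher in these pairs. The same direction in all 3 pairs was seen for 6 pump genes higher and 2 lower, and for 0 hydrolases higher and 7 lower, where 17.6% and 18.9% of all genes kept were higher or lower throughout. In replicates 2 and 3, NGPF2 lay above vehicle with no overlap for 11 pump genes and below it for 3, and for 1 and 10 hydrolases, against 32.3% and 32.7% of all genes kept. Because pump genes are abundant, a closer measure is the 5813 genes with a mean of at least 1000, whose medians were -0.00090, 0.12 and 0.09 in pairs 1, 2 and 3. The 17 pump genes above that level had medians of -0.01, 0.24 and 0.18. Higher in pairs 1, 2 and 3 were 8, 14 and 12 of these 17, beside 2885, 3771 and 3632 of the 5813. The 6 hydrolases above that level had medians of -0.08, -0.09 and -0.23, and the 7 below it 0.08, -1.98 and -1.65. The hydrolase median thus rests mainly on the rarer genes.

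**Figure D2:**
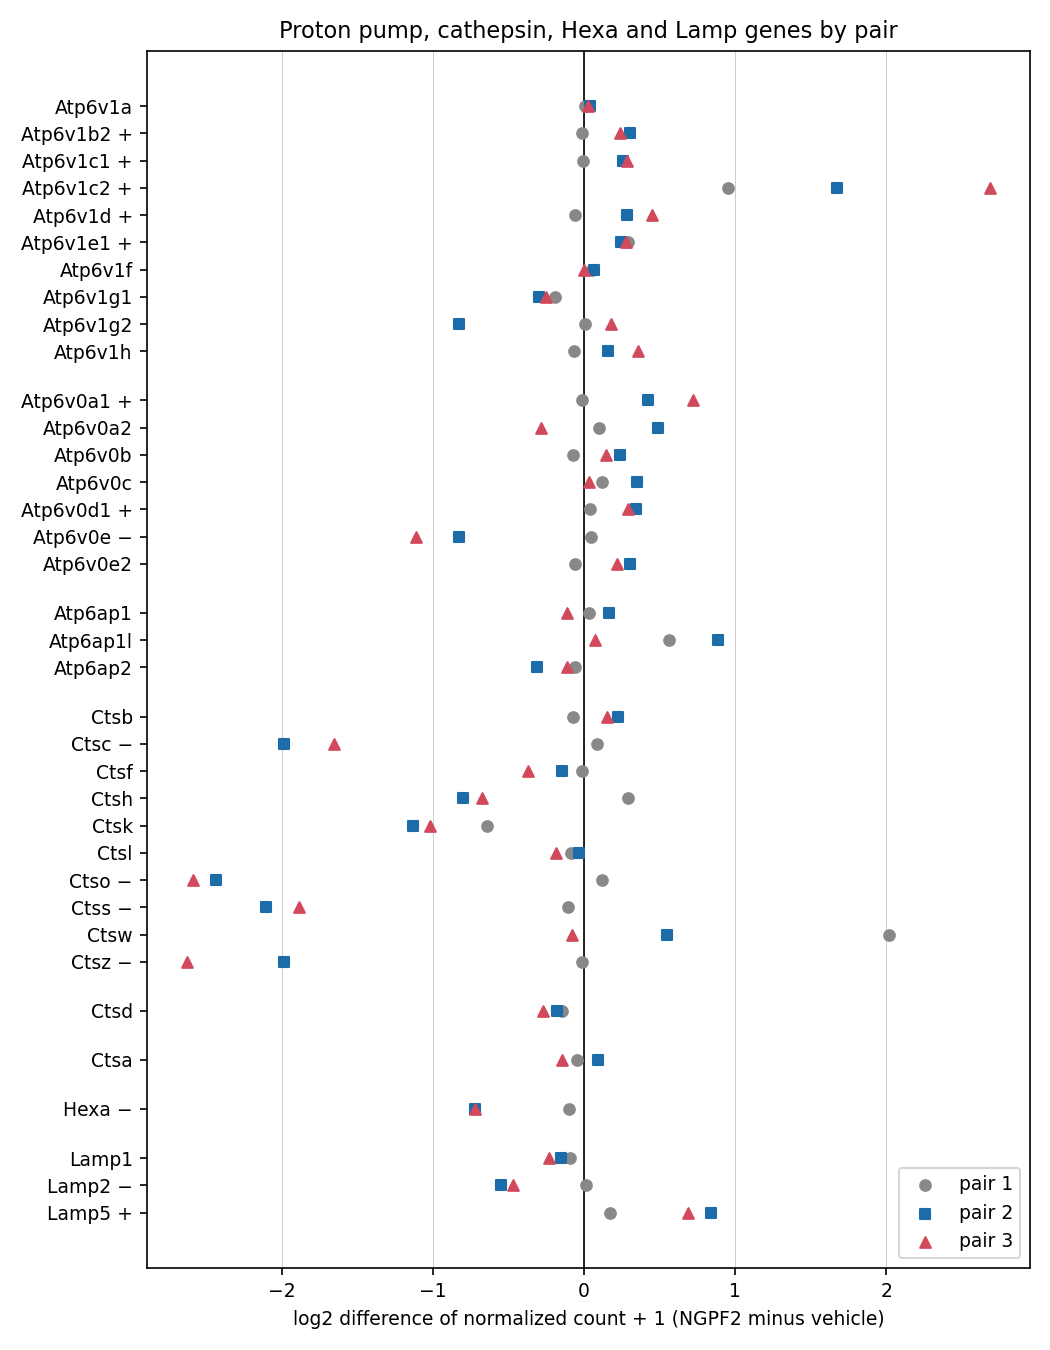
Log2 difference of the normalized count plus 1 (NGPF2 minus vehicle) for each of the 36 genes in pair 1 (circles), pair 2 (squares) and pair 3 (triangles), grouped by role. A plus or minus after a name marks a gene that rose or fell in replicates 2 and 3, and most circles lie near 0.

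Within replicates 2 and 3, 7 of the 20 pump genes rose and 1 fell (limma, adjusted p under 0.05), where 9.77% of all genes kept were called higher and 11.3% lower. Among genes with a mean of at least 1000 the share called higher was 19.6%, against 6 of the 17 pump genes of that level, and 8.39% were called lower, against 0 of the 17. Of the 7 that rose, all but Atp6v1c2 lost their call with quantile scaling and with scaling to library totals. Over the 36 genes the split of 8 higher and 7 lower became 2 and 10 with quantile scaling and 2 and 11 with library totals, and over all genes kept 1627 and 1884 became 1651 and 1747, and 982 and 2664. With the replicate number as a block, Atp6v1b2, Atp6v1c1 and Atp6v1e1 lost their calls, which left 5 of the 36 genes higher. Those same genes also lost them without NGPF2 2, and Atp6v1c1, Atp6v1c2, Atp6v1d and Atp6v1e1 without NGPF2 3. Without vehicle 2, or without vehicle 3, no gene of the 16653 passed (limma), and 11 and 13 of the 36 had an unadjusted p under 0.05.

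In the V1 sector, 5 of 10 genes rose and none fell, where 9.77% of all genes kept were called higher and 11.3% lower. Among genes with a mean of at least 1000, 19.6% were called higher. Atp6v1b2 (ENSMUSG00000006273, chromosome 8, 69088646 to 69113711, mm10) stood at 26039, 41734 and 40378 normalized counts in NGPF2 libraries 1, 2 and 3, against 26300, 33829 and 34243 in vehicle libraries 1, 2 and 3. Replicates 2 and 3 did not overlap between the groups, and both libraries of replicate 1 lay below all 4 of them. Its log2 difference in replicates 2 and 3 was 0.27 (SE 0.06, adjusted p = 0.0392), a 1.21-fold difference that came to -0.03 with quantile scaling. The catalytic A subunit, Atp6v1a (ENSMUSG00000052459, chromosome 16, 44085402 to 44139705), is its partner in the ATP-splitting ring and did not pass, at 18792, 25746 and 25114 with NGPF2, against 18719, 25098 and 24692 with vehicle (log2 0.03, SE 0.06, adjusted p = 0.75).

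Atp6v1d and Atp6v1c1, subunits of the stalks, had replicate 1 lowest, as Atp6v1b2 did. Atp6v1d, the central rotor, stood at 5023, 9677 and 10092 with NGPF2, against 5246, 7936 and 7386 with vehicle, and Atp6v1c1, which couples the sectors, at 4625, 9862 and 9943 with NGPF2, against 4652, 8237 and 8183 with vehicle. In both, NGPF2 2 and 3 were above vehicle 2 and 3, which in turn were above both libraries of replicate 1. The log2 differences were 0.37 (SE 0.07, adjusted p = 0.024) for Atp6v1d and 0.27 (SE 0.06, adjusted p = 0.0337) for Atp6v1c1. Atp6v1e1, a peripheral stalk subunit (ENSMUSG00000019210, chromosome 6, 120794305 to 120822793), was higher with NGPF2 in each pair, at 9501, 17295 and 17247 with NGPF2, against 7768, 14623 and 14211 with vehicle. It differed by 0.29, 0.24 and 0.28 in pairs 1, 2 and 3, so that pair 1 moved as far as the others, and its adjusted p was 0.0384 in replicates 2 and 3 and 0.379 over the 3 pairs.

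The rare C2 isoform moved most of all pump genes. Atp6v1c2 (ENSMUSG00000020566, chromosome 12, 17284721 to 17329359), known mainly from kidney and lung, held 34.5, 99.2 and 120.2 normalized counts in NGPF2 libraries 1, 2 and 3, against 17.4, 30.4 and 17.9 in vehicle libraries 1, 2 and 3, so that the 3 NGPF2 libraries lay above the 3 vehicle libraries. It rose 4.53-fold in replicates 2 and 3 (log2 2.18, SE 0.34, adjusted p = 0.0146) and was 1.93-fold higher in pair 1, on 54 and 27 reads. Over the 3 pairs the adjusted p was 0.379 and the unadjusted p 0.00658. Its call in replicates 2 and 3 was also lost without NGPF2 3 and with no filter on low values. On the opposite strand, exons of Pdia6 overlap 50 of its exon bases (2.3%). Pdia6 had a mean of 2808 normalized counts, against 53.3 for Atp6v1c2. With the strand setting not given, the level of Atp6v1c2 is uncertain, and the part of Pdia6 reads in it was not tested.

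The remaining V1 genes did not pass. Atp6v1h, a regulatory subunit, stood at 8318 and 9397 normalized counts in NGPF2 2 and 3, against 7447 and 7342 in vehicle 2 and 3, and Atp6v1f at 2590 and 2554 normalized counts in NGPF2 2 and 3, against 2473 and 2555 in vehicle 2 and 3. Their log2 differences were 0.26 (SE 0.08, adjusted p = 0.0819) and 0.03 (SE 0.07, adjusted p = 0.759) in that order. The ubiquitous G subunit Atp6v1g1 was lower with NGPF2 in each pair, with log2 differences of -0.19, -0.30 and -0.25 (adjusted p = 0.0543 in replicates 2 and 3). The neuronal G subunit Atp6v1g2 set vehicle 2 apart: it held 7583, 3842 and 3500 with NGPF2, against 7547, 6816 and 3095 with vehicle. Vehicle 2 thus matched replicate 1 and not vehicle 3, and the log2 difference in replicates 2 and 3 was -0.32 (SE 0.36, adjusted p = 0.564), and 0.24 without vehicle 2.

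In the V0 sector, 2 of 7 genes rose and 1 fell, beside the same shares of 9.77% and 11.3% of all genes kept. The share called higher was 19.6% among genes with a mean of at least 1000. The neuronal a subunit Atp6v0a1 (ENSMUSG00000019302, chromosome 11, 101009452 to 101063719), found on synaptic vesicles, stood at 15400, 19680 and 24970 normalized counts in NGPF2 libraries 1, 2 and 3, against 15527, 14668 and 15120 in vehicle libraries 1, 2 and 3. Only NGPF2 2 and 3 stood out, since vehicle 2 and 3 lay below both libraries of replicate 1. The gene rose 1.49-fold (log2 0.57, SE 0.12, adjusted p = 0.0328). Atp6v0d1, which joins the c ring to the rotor, held 10420, 13026 and 12658 with NGPF2, against 10150, 10262 and 10355 with vehicle, with the 3 NGPF2 libraries above the 3 vehicle libraries, and a log2 difference in replicates 2 and 3 of 0.32 (SE 0.06, adjusted p = 0.0239). With library totals in place of the deposited size factors this became 0.19, and it no longer passed.

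The ubiquitous e subunit Atp6v0e (ENSMUSG00000015575, chromosome 17, 26663231 to 26699647) was the pump gene that fell, by 1.96-fold. It stood at 306, 259 and 188 normalized counts in NGPF2 libraries 1, 2 and 3, against 296, 461 and 408 in vehicle libraries 1, 2 and 3, and its log2 difference was -0.97 (SE 0.19, adjusted p = 0.0274). NGPF2 2 and 3 lay below all other libraries, while its brain paralogue Atp6v0e2 was higher in the same libraries, at 22677 and 20975 normalized counts in NGPF2 2 and 3, against 18390 and 18026 in vehicle 2 and 3 (log2 0.26, SE 0.07, adjusted p = 0.0544), and did not pass. Atp6v0b, which encodes c'', and Atp6v0c, the proton-carrying c ring subunit, did not pass either, at log2 differences of 0.19 (SE 0.07, adjusted p = 0.121) and 0.19 (SE 0.13, adjusted p = 0.361). Atp6v0c held 17158 in vehicle 2 and 22340 in vehicle 3, and its reads may be shared with a processed pseudogene, so that its level is uncertain. Atp6v0a2, a form of endosomes and Golgi, differed more between NGPF2 2 and NGPF2 3, at 1695 and 960.2, than between the groups (log2 0.10, SE 0.27, adjusted p = 0.818).

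Accessory proteins of the pump did not pass. Atp6ap1, a glycosylated subunit that sits on V0, stood at 9814, 9464 and 7856 with NGPF2, against 9591, 8453 and 8475 with vehicle. Atp6ap2, the (pro)renin receptor, stood at 8056, 7562 and 8947 with NGPF2, against 8398, 9362 and 9681 with vehicle. The rare Atp6ap1l held 28.1, 10.8 and 12.6 with NGPF2 and 18.7, 5.36 and 11.9 with vehicle, with groups that overlap. Log2 differences in replicates 2 and 3 were 0.03 (SE 0.10, adjusted p = 0.873), -0.21 (SE 0.10, adjusted p = 0.185) and 0.48 (SE 0.55, adjusted p = 0.577) in that order.

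**Figure D3:**
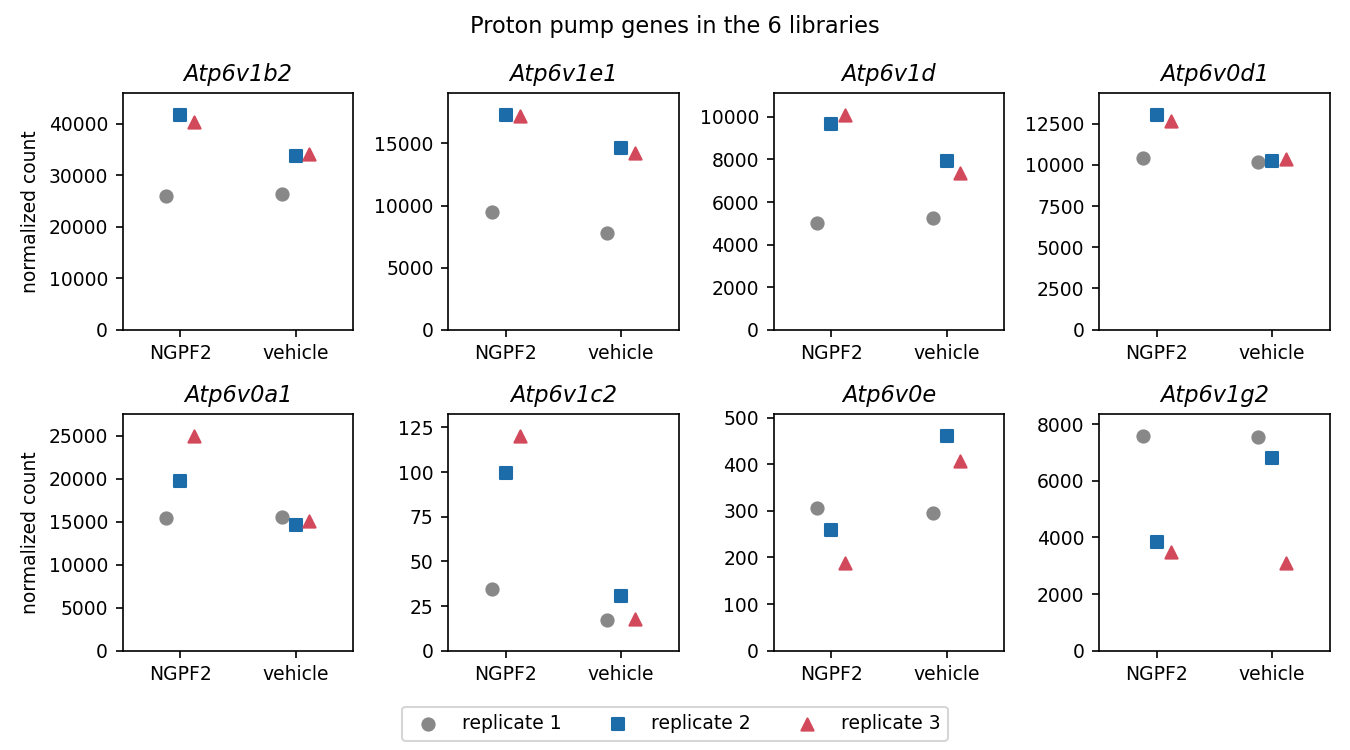
Normalized counts of 8 pump genes in the 3 NGPF2 and the 3 vehicle libraries, each axis starting at 0, with replicate 1 as circles, 2 as squares and 3 as triangles. Atp6v1b2, Atp6v1d and Atp6v0a1 were higher in NGPF2 2 and 3 than in vehicle 2 and 3, Atp6v0e was lower, and vehicle 2 stood apart from vehicle 3 in Atp6v1g2.

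Of the 13 hydrolases, 5 fell in replicates 2 and 3 and none rose (limma, adjusted p under 0.05), where 11.3% of all genes kept were called lower. The 5 were Ctso, Ctsz, Ctss, Ctsc and Hexa. Each kept its call with a pseudocount of 0.5 or 4, a minimum mean of 50 (for the genes that reach it), both other scalings, voom and the replicate block, and 4 of them, all but Ctso, lost it with no filter on low values. Without vehicle 2, or without vehicle 3, none of them passed, as no gene of the table did, and Ctss also lost its call without NGPF2 2 and without NGPF2 3. By level, with the deposited size factors, 4 of the 7 genes with a mean under 1000 fell, but only Hexa among the 6 above it. The 4 rarer ones were lowest in NGPF2 2 and 3, as were the summed microglia and astrocyte markers given above, whose part in these falls was not tested.

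Ctso, a cysteine cathepsin of broad expression (ENSMUSG00000028015, chromosome 3, 81932601 to 81956725), changed most. It held 236, 77.7 and 77.2 normalized counts in NGPF2 libraries 1, 2 and 3, against 217, 424 and 468 in vehicle libraries 1, 2 and 3. Both NGPF2 2 and 3 lay below every other library, and vehicle 2 and 3 lay above both libraries of replicate 1. Summed astrocyte markers, whose part in the change of Ctso was not tested, followed the same pattern. Ctso fell 5.69-fold in replicates 2 and 3 (log2 -2.51, SE 0.15, adjusted p = 0.00177). Against the 0.12 of pair 1, the effect differed by -2.63 (SE 0.25, adjusted p = 0.0207, limma interaction), which made it the single gene of the 36 whose effect differed between the library sets. Of all genes kept, 2.49% did so, 1.77% with a more negative and 0.721% with a more positive effect in replicates 2 and 3. Of the 11 astrocyte markers kept, 9 did so as well, each with a more negative effect. Replicate 1 has 1 library per group, so this test takes its spread from replicates 2 and 3, and Ctso did not pass it without vehicle 2 or without vehicle 3.

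Ctsz, Ctsc and Ctss shared another pattern, being most abundant in replicate 1. Ctsz, a carboxypeptidase also named cathepsin X (ENSMUSG00000016256, chromosome 2, 174427493 to 174439039), stood at 520.1, 64.6 and 44.9 with NGPF2, against 526, 258 and 281 with vehicle. Ctsc, the dipeptidyl peptidase that activates granule serine proteases (ENSMUSG00000030560, chromosome 7, 88278085 to 88310888), stood at 504, 23.9 and 32.3 with NGPF2, against 476, 97.4 and 104 with vehicle. Ctss, an elastolytic protease of antigen-presenting cells (ENSMUSG00000038642, chromosome 3, 95526786 to 95556403), stood at 115, 13.2 and 8.97 with NGPF2, against 124, 59.8 and 35.8 with vehicle. In each of the 3, replicate 1 of both groups was highest, vehicle 2 and 3 were intermediate and NGPF2 2 and 3 lowest. They fell 4.93-fold, 3.52-fold and 3.98-fold, with log2 differences of -2.30 (SE 0.24, adjusted p = 0.0055), -1.82 (SE 0.27, adjusted p = 0.0126) and -1.99 (SE 0.43, adjusted p = 0.0328). Summed microglia markers followed the same order of libraries. The value of Ctss in NGPF2 2 and 3 rests on 11 and 5 reads.

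Hexa, a subunit of the enzyme that removes terminal sugars from GM2 ganglioside (ENSMUSG00000025232, chromosome 9, 59539540 to 59565109), fell 1.65-fold. It stood at 1137, 799.8 and 851 normalized counts in NGPF2 libraries 1, 2 and 3, against 1217, 1319 and 1404 in vehicle libraries 1, 2 and 3. The 3 NGPF2 libraries lay below the 3 vehicle libraries, with log2 differences of -0.10 in pair 1 and -0.72 (SE 0.09, adjusted p = 0.00797) in replicates 2 and 3.

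With the deposited size factors, the abundant cathepsins did not pass. Ctsd, the main aspartic protease of the lysosome, stood at 11389, 11499 and 11348 normalized counts in NGPF2 libraries 1, 2 and 3, against 12613, 13029 and 13717 in vehicle libraries 1, 2 and 3. All 3 NGPF2 libraries lay below the 3 vehicle libraries, with log2 differences of -0.15, -0.18 and -0.27 in pairs 1, 2 and 3, with an adjusted p of 0.0614 in replicates 2 and 3 and 0.392 over the 3 pairs. In replicates 2 and 3, Ctsd passed with quantile scaling (log2 -0.40, adjusted p = 0.0122, limma). It also passed with library totals (log2 -0.35, adjusted p = 0.018, limma). Ctsb, an abundant cysteine protease, was higher in NGPF2 2 and 3, at 18081 and 16880 normalized counts in NGPF2 2 and 3, against 15473 and 15164 in vehicle 2 and 3 (log2 0.19, SE 0.07, adjusted p = 0.106), although 12.8% of its exon bases overlap Fdft1, a cholesterol synthesis gene on the opposite strand, the strand setting of the counts is not given in the sources used here, and its difference came to -0.01 with quantile scaling. Ctsl differed by -0.11 (SE 0.07, adjusted p = 0.341), Ctsf by -0.26 (SE 0.10, adjusted p = 0.128) and the serine carboxypeptidase Ctsa, which protects beta-galactosidase and neuraminidase, by -0.03 (SE 0.10, adjusted p = 0.87). Ctsf passed with library totals (log2 -0.39, adjusted p = 0.0405, limma). Among the rarest, Ctsh stood at 26.3 and 28.7 normalized counts in NGPF2 2 and 3, against 46.4 and 46.5 in vehicle 2 and 3 (adjusted p = 0.123), Ctsk, a collagenolytic protease of osteoclasts, at 5.98 and 5.38 normalized counts in NGPF2 2 and 3, against 14.3 and 11.9 in vehicle 2 and 3 (adjusted p = 0.169), and Ctsw, of cytotoxic lymphocytes, at 22.7 and 8.97 normalized counts in NGPF2 2 and 3, against 15.2 and 9.54 in vehicle 2 and 3 (adjusted p = 0.804).

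**Figure D4:**
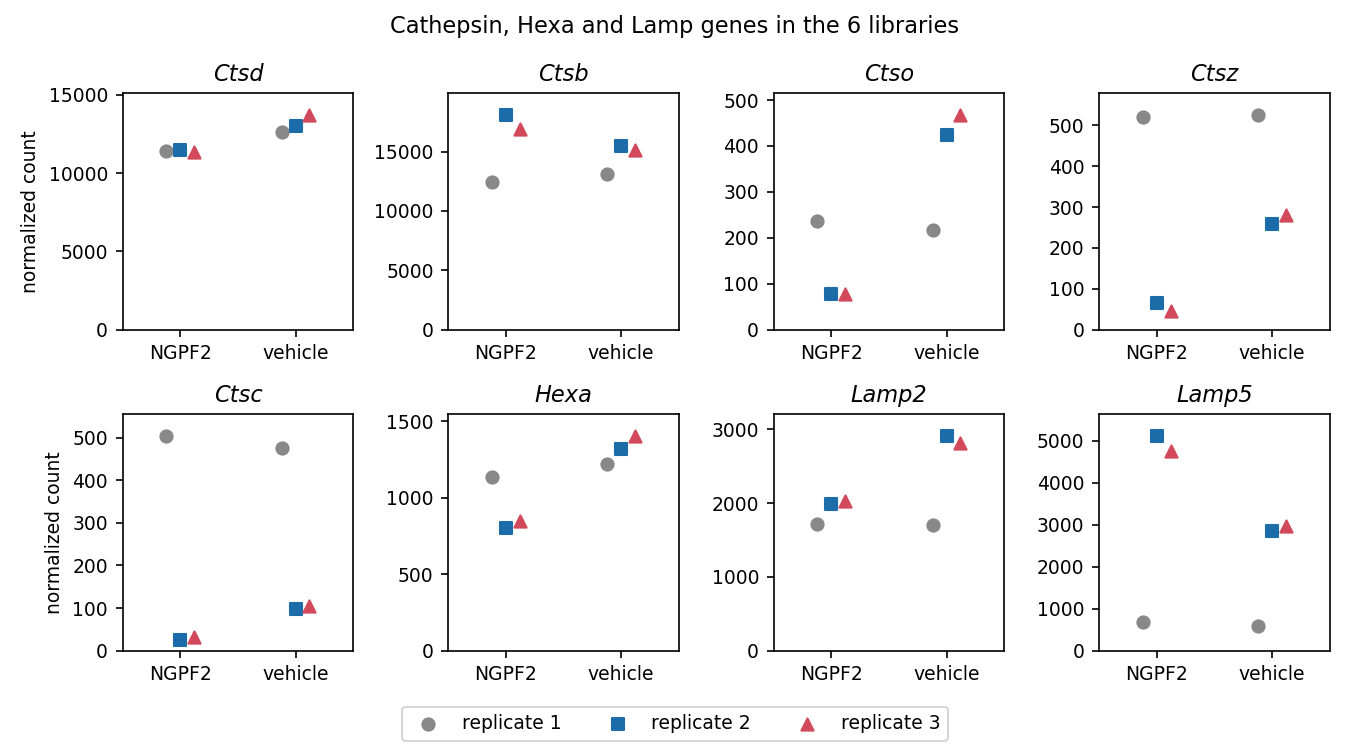
Normalized counts of 5 cathepsins, Hexa, Lamp2 and Lamp5 in the 3 NGPF2 and the 3 vehicle libraries, each axis starting at 0, with replicates marked by shape. Ctso, Ctsz, Ctsc, Hexa and Lamp2 were lower in NGPF2 2 and 3 than in vehicle 2 and 3 and Lamp5 higher, whereas the circles of replicate 1 were level between the groups in these genes.

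Of the 5 genes that fell, 4 have a mean under 1000 and only Hexa lies above it. The median log2 difference in replicates 2 and 3 was -0.17 over the 6 hydrolases above that mean and -1.82 over the 7 below it. Per kb, the 13 genes added up to 9456 and 9082 in NGPF2 2 and 3, against 10199 and 10514 in vehicle 2 and 3, and to 9407 in NGPF2 1 and 10126 in vehicle 1. Ctsb and Ctsd together supplied 83.3% and 83.9% of that sum in NGPF2 2 and 3, against 79.4% and 79.3% in vehicle 2 and 3. The 20 pump genes added up to 63163 and 62754 per kb in NGPF2 2 and 3, against 55997 and 55993 in vehicle 2 and 3. The pump sum was 6.68 and 6.91 times the hydrolase sum in NGPF2 2 and 3, 5.49 and 5.33 times in vehicle 2 and 3, and 5.27 and 4.88 times in NGPF2 1 and vehicle 1. A single factor per library leaves this ratio as it is, whereas quantile scaling does not, and with it the median log2 differences in replicates 2 and 3 became 0.04 for the pump and -0.40 for the hydrolases, against 0.22 and -0.72 as deposited.

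The Lamp genes divided. Lamp1 (ENSMUSG00000031447, chromosome 8, 13159161 to 13175338) stood at 10943, 9533 and 9686 with NGPF2, against 11650, 10595 and 11352 with vehicle and did not pass (log2 -0.19, SE 0.07, adjusted p = 0.104). It did pass with quantile scaling (log2 -0.36, adjusted p = 0.0206, limma) and with library totals (log2 -0.32, adjusted p = 0.0324, limma). Lamp2, which also takes part in chaperone-mediated autophagy (ENSMUSG00000016534, chromosome X, 38401357 to 38456454), fell 1.42-fold in replicates 2 and 3 and held 1721, 1992 and 2028 with NGPF2, against 1709, 2908 and 2812 with vehicle. NGPF2 2 and 3 lay between replicate 1 and vehicle 2 and 3 (log2 -0.51, SE 0.07, adjusted p = 0.00997). Lamp5 (ENSMUSG00000027270, chromosome 2, 136052239 to 136069917) rose 1.69-fold and held 670.4, 5110 and 4760 normalized counts in NGPF2 libraries 1, 2 and 3, against 596, 2860 and 2960 in vehicle libraries 1, 2 and 3. Its log2 difference was 0.76 (SE 0.07, adjusted p = 0.00435), and its call, like that of Lamp2 and Ctso, held in each of the 8 alternatives that keep all 4 libraries. Without vehicle 2, or without vehicle 3, neither Lamp gene passed.

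The vehicle libraries also differed among themselves by replicate number. Lamp5 was 4.88-fold higher in the mean of vehicle 2 and 3 than in vehicle 1, Ctso 2.05-fold higher, Atp6v1e1 1.86-fold and Atp6v1c1 1.76-fold higher. Ctsc was 4.73-fold lower there, Ctss 2.59-fold and Ctsz 1.95-fold lower. Of the 20 pump genes, 15 were higher in vehicle 2 and 3 than in vehicle 1, with a median log2 difference of 0.31, and of the 13 hydrolases 5 were, with a median of -0.29, where the median over all genes kept was -0.01. Vehicle 1 is a single library, so these differences have no test.

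Further hydrolases and membrane proteins of the lysosome fell more often than they rose. Of 43 further lysosomal hydrolases kept, 13 fell in replicates 2 and 3 and 0 rose, where 11.3% and 9.77% of all genes kept were called, with medians of -0.03, -0.26 and -0.36 in pairs 1, 2 and 3. Gusb, beta-glucuronidase, stood at 82.5 and 80.8 normalized counts in NGPF2 2 and 3, against 244 and 228 in vehicle 2 and 3, a 2.86-fold fall (log2 -1.52, adjusted p = 0.00607). The alpha-mannosidase Man2b2 fell 3.76-fold, the glycosylasparaginase Aga 3.69-fold and the chitobiase Ctbs 3.24-fold. Of 29 further lysosomal membrane proteins and transporters, 11 fell and 2 rose, with medians of 0.03, -0.32 and -0.45. Cd63, a tetraspanin of late endosomes, stood at 338 and 302 normalized counts in NGPF2 2 and 3, against 1041 and 977 in vehicle 2 and 3 (log2 -1.66, adjusted p = 0.00222). Cd68, the macrophage member of the Lamp family, fell 3.16-fold and Laptm5, of blood-derived cells and microglia, 4.43-fold. Slc11a1, a metal transporter of phagocytes, was at 0 in NGPF2 2 and 3, against 9.82 and 11.9 in vehicle 2 and 3, at least 2.42-fold lower with the NGPF2 libraries put at 3 counts each.

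Cathepsin inhibitors fell in 2 of 5 cases, where 11.3% of all genes kept were called lower. Cst3, cystatin C, stood at 3529 and 3184 normalized counts in NGPF2 2 and 3, against 8952 and 9245 in vehicle 2 and 3, a 2.71-fold fall (log2 -1.44, adjusted p = 0.00148), and the serpin Serpina3n fell 1.79-fold. Of 17 genes of V-ATPase assembly and regulation, 1 rose and 3 fell, beside 9.77% and 11.3% of all genes kept. The TLDc domain gene Oxr1 stood at 3165 and 3024 normalized counts in NGPF2 2 and 3, against 5673 and 6271 in vehicle 2 and 3 (1.93-fold lower), its relative Ncoa7 fell 1.24-fold and Dmxl1, of the complex that reassembles the pump, 1.54-fold, whereas Tbc1d24 rose 1.44-fold. The medians of that list were 0.04, 0.09 and -0.09 in pairs 1, 2 and 3.

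Genes that sort proteins to lysosomes rose in 3 of 30 cases and fell in 1. Vps33a, of the tethering complex, rose 1.39-fold, the neuronal adaptor Ap3b2 1.28-fold and Ap1g1 1.23-fold, while the sorting receptor Sorl1 fell 1.31-fold. Among 21 genes of the TFEB family, the Ragulator and the Rag GTPases, 2 rose and 1 fell. Rragd, a Rag GTPase that TFEB itself induces, stood at 10148 and 10269 normalized counts in NGPF2 2 and 3, against 6061 and 6200 in vehicle 2 and 3 (log2 0.74, adjusted p = 0.00315). Mitf, a relative of TFEB, stood at 53.8 and 44.9 normalized counts in NGPF2 2 and 3, against 163 and 135 in vehicle 2 and 3 (log2 -1.58, adjusted p = 0.0118), and Rheb rose 1.26-fold. Of all genes kept, 9.77% were called higher and 11.3% lower in that comparison.

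**Figure D5:**
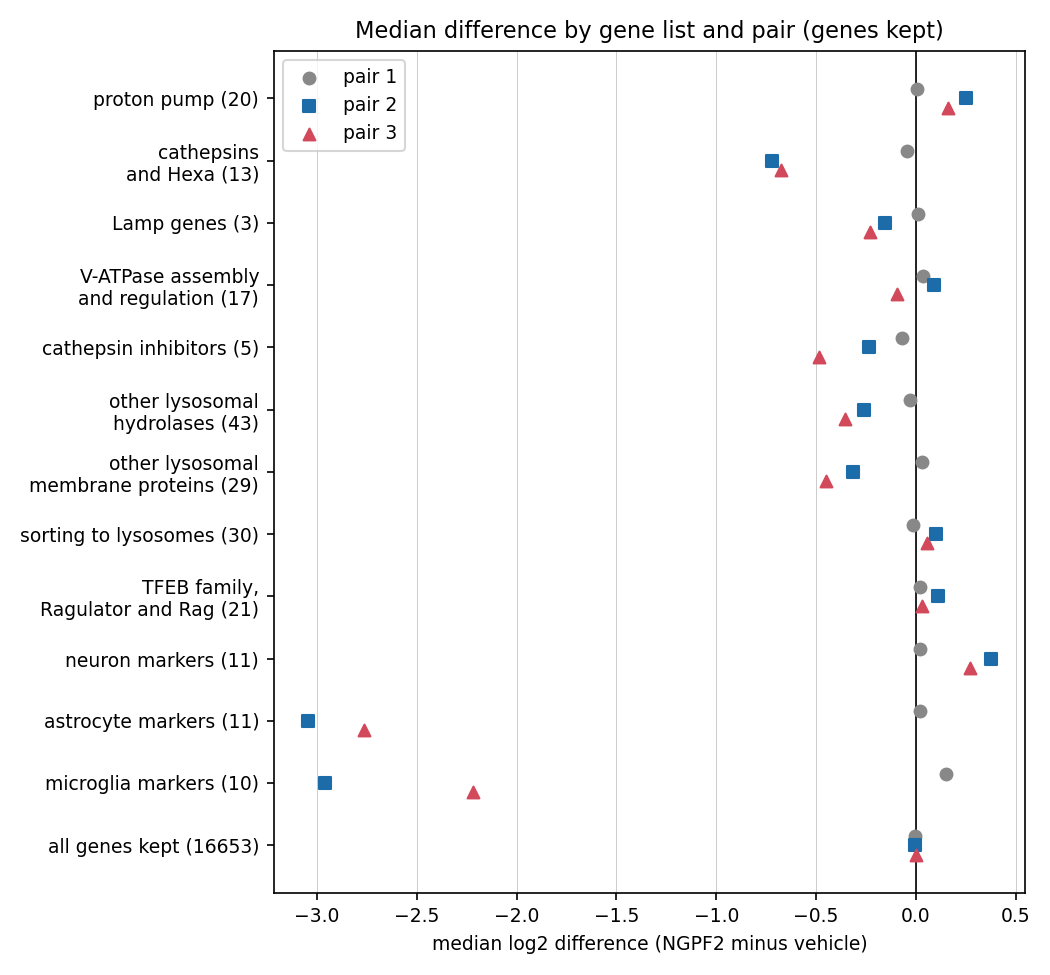
Median log2 difference (NGPF2 minus vehicle) of each gene list in pair 1 (circles), pair 2 (squares) and pair 3 (triangles), with the number of genes kept in brackets. Pump and neuron markers lay above 0 in pairs 2 and 3, the hydrolases and the astrocyte and microglia markers below 0, while pair 1 lay between -0.07 and 0.15 in these lists.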

How the data were processed

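Poly(A) RNA of 6 cortical cultures was sequenced, per the labels' protocols. FastQC, STAR 2.5, Cuffnorm, DESeq 1.22.1 and the build mm10 appear in the submitters' processing notes without role or order. Which counting program, annotation and strandedness were used is not given in the sources used here. The file is called FPKM by the authors, but its deposited values are on a log2 scale: 2 to the power of a value, minus 1, gave whole multiples of a fixed step per library for 100% of the values, within 0.01 of a count, so that each value is log2 of (count divided by size factor, plus 1). Libraries held 17478070 to 45193691 counts. Column names match the titles for replicates 2 and 3. For replicate 1 the match rests on the initial and on elimination, since the column carries another digit. That the shared name stem marks a batch is not stated.

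Symbols were found for 31185 identifiers and not for 60. Coordinates, exon lengths and overlaps come from GENCODE (mm10) and promoters from RefSeq (GRCm38.p6). More than 10% of the exon bases of Atp6v0b, Ctsa, Ctsb, Ctsd, Ctsl and Hexa lie in another gene, so their levels are uncertain. A mean normalized count of 10 or more was reached by 16653 genes, which were fitted with limma 3.58.1 in R 4.3.3 (empirical Bayes with trend, 2-sided, Benjamini-Hochberg adjustment over these genes, threshold 0.05). Fits were made over the 3 pairs with the replicate number as a block, within replicates 2 and 3 without one, and with an interaction of treatment and library set. They were tested on simulated counts in which all vehicle libraries had the same mean for a gene. The vehicle libraries here differed by replicate number, a condition that the simulation left out. The series states the pairing; deviations from the group means correlated across genes at r = 0.59, 0.30 and 0.33 for libraries of the same number and at 0.32 and 0.34 for numbers 2 and 3 crossed. P-values measure the spread between these cultures only. Alternatives were other pseudocounts, filters, scalings, voom, the block and libraries left out. A gene that the choice by symbol would also take is not reported here. Members, lists and tests were chosen with earlier results of these data known. Every member is accounted for, and of each other pathway list up to 4 passing genes with the largest log2 difference are named. A fold is 2 to the power of a log2 difference and is understated at low counts. Plots were made in Python 3.11.15 with matplotlib 3.10.9.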

Additional observations from a re-analysis of the deposited data

Results flagged for a closer look

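The effect on Ctso differed between the library sets by -2.63 in log2 (replicates 2 and 3 minus replicate 1, adjusted p = 0.0207, limma interaction), with a difference of -2.51 in replicates 2 and 3 and 0.12 in pair 1. The effect also differed, and was more negative, for 9 of the 11 astrocyte markers kept.

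The processed pseudogene Atp6v0c-ps2 (ENSMUSG00000080242, chromosome 6, 37806086 to 37806550, mm10), which the choice of genes leaves out, had a mean of 3160 normalized counts over the 6 libraries on 465 exon bases. It carried 2990, 3737 and 3604 normalized counts in NGPF2 1, 2 and 3, against 2781, 2883 and 2965 in vehicle 1, 2 and 3. Relative to Atp6v0c this was 16.9%, 17.1% and 15.8% with NGPF2, against 17.1%, 16.8% and 13.3% with vehicle. Its log2 difference in replicates 2 and 3 was 0.33 (SE 0.07, adjusted p = 0.0283, limma), while Atp6v0c did not pass, and whether reads of the gene were counted at the copy was not tested.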

How the results depend on the processing

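Over the 3 pairs 0 of 36 genes passed under each alternative with all libraries, with no replicate block too, and 0 to 12 when a replicate was left out. The 12 passed without replicate 1, where 3275 of 16653 genes did. In replicates 2 and 3, where 8 genes were higher and 7 lower, the counts were 1 and 2 with no filter on low values, 2 and 10 with quantile scaling, 2 and 11 with library totals and 5 and 7 with the replicate block, whose lost calls were Atp6v1b2, Atp6v1c1 and Atp6v1e1. Leaving out a library gave 0 to 6 higher and 0 to 7 lower, 0 of either without vehicle 2 or without vehicle 3, fits in which 0 of 16653 genes passed (limma) and 3610 and 3623 had an unadjusted p under 0.05. In those fits the lone vehicle library is taken to vary as the NGPF2 libraries do. Genes whose effect differed between library sets numbered 1, and 2 with a pseudocount of 4, 3 with no filter, 2 with a minimum mean of 50, 2 with library totals, 3 with voom, 2 with the replicate block and 0 to 3 with a library left out. Of all genes fitted, the effect differed for 415 of 16653 as deposited. With no filter it differed for 4684 of 31245, and with a minimum mean of 50 for 733 of 13278. Of the 16653 it differed for 531 with a pseudocount of 4, 580 with library totals, 1368 with voom and 526 with the replicate block. The median log2 differences in replicates 2 and 3, 0.22 for the pump, -0.72 for the hydrolases and -0.19 for the Lamp genes, became 0.0371, -0.40 and -0.36 with quantile scaling and 0.0974, -0.85 and -0.32 with library totals. Library totals moved the median of all genes by -0.13, so that relative to all genes the pump stood at 0.23, against -0.02 with quantile scaling. With a library left out these medians ran from 0.21 to 0.26, -0.77 to -0.68 and -0.24 to -0.14. Signs turned with quantile scaling for Ctsb (-0.00871), Atp6v0c (-0.0302), Atp6v1a (-0.17), Atp6v1b2 (-0.0265), Atp6v1f (-0.023) and Atp6ap1 (-0.15), and with library totals for Atp6v0a2 (-0.0273), Atp6v1a (-0.0964), Atp6v1f (-0.094) and Atp6ap1 (-0.10). They also turned with a library left out, with values from -0.39 to 0.86 for Ctsw (without NGPF2 2 and without vehicle 3), -0.31 to 0.51 for Atp6v0a2 and -0.11 to 0.16 for Atp6ap1 (without NGPF2 2), -0.13 to 0.0769 for Ctsa (without NGPF2 3), and -0.000711 to 0.38 for Atp6v0c, -0.89 to 0.24 for Atp6v1g2 and -0.0336 to 0.99 for Atp6ap1l (without vehicle 2). Of these only Atp6v1b2 had passed. The median of the microglia markers, -2.82 in replicates 2 and 3, was -2.47 with genes at 0 in both NGPF2 libraries put at 3 counts per library. The causes of these shifts were not tested. Depth limits the rare genes: in NGPF2 2 and 3, Ctsc rests on 20 and 18 reads, Ctss on 11 and 5 and Ctsh on 22 and 16.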

Other observations

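The genes below the minimum had mean normalized counts under 10 in these cultures. Atp6v0a4, an a subunit of kidney and inner ear, held 17.9, 3.59 and 3.59 normalized counts in NGPF2 1, 2 and 3, against 1.29, 9.82 and 16.7 in vehicle 1, 2 and 3. These rest on 28, 3 and 2 reads with NGPF2 and 2, 11 and 14 with vehicle. On the same strand, D630045J12Rik, with a mean of 1965 normalized counts, shares 259 of its exon bases (5.21%). The part of D630045J12Rik reads in the level of Atp6v0a4 was not tested. Atp6v0d2, the d subunit of osteoclasts and kidney, held 3.20, 9.56 and 0 with NGPF2, against 14.2, 7.15 and 2.39 with vehicle. The kidney B subunit Atp6v1b1 was at 0 in 4 of the 6 libraries and the testis E subunit Atp6v1e2 at 0 in 2. The means of Atp6v1b1, Atp6v1e2, Atp6v1fnb, Ctse, Ctsg and Ctsq over the 6 libraries were 1.24, 2.79, 0.426, 0.537, 0.857 and 0.298 normalized counts in that order.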
